A study of Rattus norvegicus with 18 samples.

Results

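The collagen genes of phenylephrine-treated neonatal rat ventricular cardiomyocytes were examined across infection with 3 adenoviruses, each carrying a short open reading frame (sORF). Members were chosen by symbol: every gene of the table named Col, a type number, a and a chain number, which gave 44 of 19880 genes. They fell into 11 fibrillar, 8 basement membrane, 6 type VI, 2 type VIII and 17 other collagen genes. The cells were primary ventricular cells of Sprague-Dawley rats on postnatal day 2, and every culture, controls included, had received phenylephrine (PE, an alpha-1 adrenergic agonist that induces hypertrophic growth) at 20 µM for 24 h. Cells were infected with ad-sORF6, ad-sORF7 or ad-sORF8, or with the control virus of that sORF, giving 6 groups of 3 libraries. No group without virus or without PE was among the 18 libraries. Per the labels, isolated cells had first been left to adhere so that non-cardiomyocytes could be removed. The labels do not give the sORF sequences, the control insert or the cell type that a promoter of the virus would favour. Nor is it stated that the 3 libraries of each group were made from different cultures. The p-values thus reflect library-to-library spread, part or all of which may be technical.

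Collagens are trimeric proteins of the extracellular matrix whose chains wind around each other through repeats with glycine at every turn. Fibrillar types I, III and V form the tensile fibres between cardiac muscle cells and are made in the heart mainly by fibroblasts, while type IV chains form the sheet-like basement membrane that surrounds each muscle cell. Type VI makes beaded microfilaments that link basement membrane and fibres, and the short-chain type VIII forms networks in vessel walls and in remodelling heart.

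Upstream sequences of Col8a2, Col5a3 and the pair Col4a1 and Col4a2 are shown first. Col8a2 and Col5a3 had the smallest adjusted p-values of the collagen genes in the sORF6 and the sORF7 comparison, and Col4a1 and Col4a2 are a divergent pair with nearly equal levels. The sequences are from RefSeq on build GRCr8, and 35 of the 44 members had an entry of 300 bases around their start. Capitals mark the letters GGGCGG (a GC box) or CCAAT on either strand, and only bases before the transcript start are printed. The first lies between the starts of Col4a2 and Col4a1 (chr16:84885521-84885596, 76 bases, plus strand), the second precedes Col8a2 (chr5:143870519-143870753, 235 bases, plus strand) and the third precedes Col5a3 (chr8:27626003-27626198, 196 bases, minus strand).
Col4a2 to Col4a1: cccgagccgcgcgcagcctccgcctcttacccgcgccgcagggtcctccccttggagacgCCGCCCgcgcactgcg
Col8a2: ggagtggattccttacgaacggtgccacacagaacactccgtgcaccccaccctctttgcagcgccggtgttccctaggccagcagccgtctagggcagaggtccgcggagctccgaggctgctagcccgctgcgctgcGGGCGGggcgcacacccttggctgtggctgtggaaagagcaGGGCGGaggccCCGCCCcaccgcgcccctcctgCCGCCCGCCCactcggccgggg
Col5a3: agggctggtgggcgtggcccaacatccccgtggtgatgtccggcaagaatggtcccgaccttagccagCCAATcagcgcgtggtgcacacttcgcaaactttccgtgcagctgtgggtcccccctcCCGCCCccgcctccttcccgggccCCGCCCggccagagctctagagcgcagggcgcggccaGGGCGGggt

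The stretch before Col8a2 held 5 GC boxes, of which 1 pair overlaps, the stretch before Col5a3 held 3 GC boxes and 1 CCAAT, and the 76 bases shared by the type IV pair held 1 GC box. None of the 3 stretches held TATAAA. Over the whole 300-base windows, GGGCGG was present in 19 of 35 collagen genes, against 33.1% of all 33469 windows. CCAAT was present in 11 of 35 (37.5% of all windows) and TATAAA in 4 of 35 (14.2%). The collagen counts take 1 window per gene, though these genes had 38 windows, while the shares over all windows take every window. Counts per gene and shares per window are thus not fully alike. These matches describe letters only. In the same annotation the starts of Col4a3 and Col4a4 lay 412 bases apart and those of Col4a5 and Col4a6 lay 1414 bases apart. In the deposited table, on build Rnor_6.0, Col8a2 (gene ID 313592) spans chr5:144308527-144335142 on the plus strand and Col5a3 (gene ID 60379) spans chr8:21786324-21831751 on the minus strand. The table's intervals of Col4a1 and Col4a2 overlap, as do those of Col4a3 and Col4a4 and of Col1a2 and Slc25a13, so counts within each pair are uncertain.

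Each library held 15697177 to 17658137 counts, and 39 of the 44 collagen genes were among the 14872 genes that passed the filter on low counts. The 5 that did not were Col23a1, Col25a1, Col9a1, Col6a5 and Col6a4, all under 0.1 FPKM (fragments per kilobase of transcript, scaled to library size) on average. Cardiomyocyte markers were high in every library, at a summed 20483 to 33785 FPKM over 11 genes. Fibroblast markers summed to 552 to 683 FPKM over 14 genes, and smooth muscle and pericyte markers to 1843 to 2447 FPKM over 11. Acta2 (1080 FPKM on average), Tagln (566) and Cnn1 (218) held most of the latter sum. The other markers of that list averaged from 0.641 (Kcnj8) to 159 FPKM (Mcam), with Myh11 at 12.1, so the 2 sums do not compare numbers of cells. Endothelial markers were near 0, at 17.1 to 21.3 FPKM summed over 12 genes of which 6 averaged under 1 FPKM. Leukocyte markers summed to 36.5 to 53.6 FPKM, epicardial markers to 22.5 to 31.9 and Schwann cell markers to 4.04 to 8.12. In these bulk samples, fewer cells of a type and less RNA per cell cannot be told apart.

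Collagen transcripts made up 1.43% to 1.71% of all counts, and their FPKM values summed to 2703 ± 135 (SD, n = 18 libraries). FPKM is a value per transcript length, so levels of different genes are compared on it. Col1a1, which encodes the major chain of type I collagen, led in all 18 libraries at 910 FPKM (827 to 989), or 33.7% of the collagen sum. The basement membrane genes Col4a1 (347 FPKM) and Col4a2 (321 FPKM) came next, followed by the second type I chain, Col1a2 (224 FPKM), and by Col3a1 (222 FPKM), the chain of type III fibres. These 5 genes held 74.9% of the sum. The order of Col1a2 and Col3a1 varied with the group, and Col1a2 was the higher of the pair in 8 of 18 libraries. Col1a2 was the higher in every sORF7 and sORF8 library, and Col3a1 in every sORF6 and sORF7 control library.

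**Figure D1:**
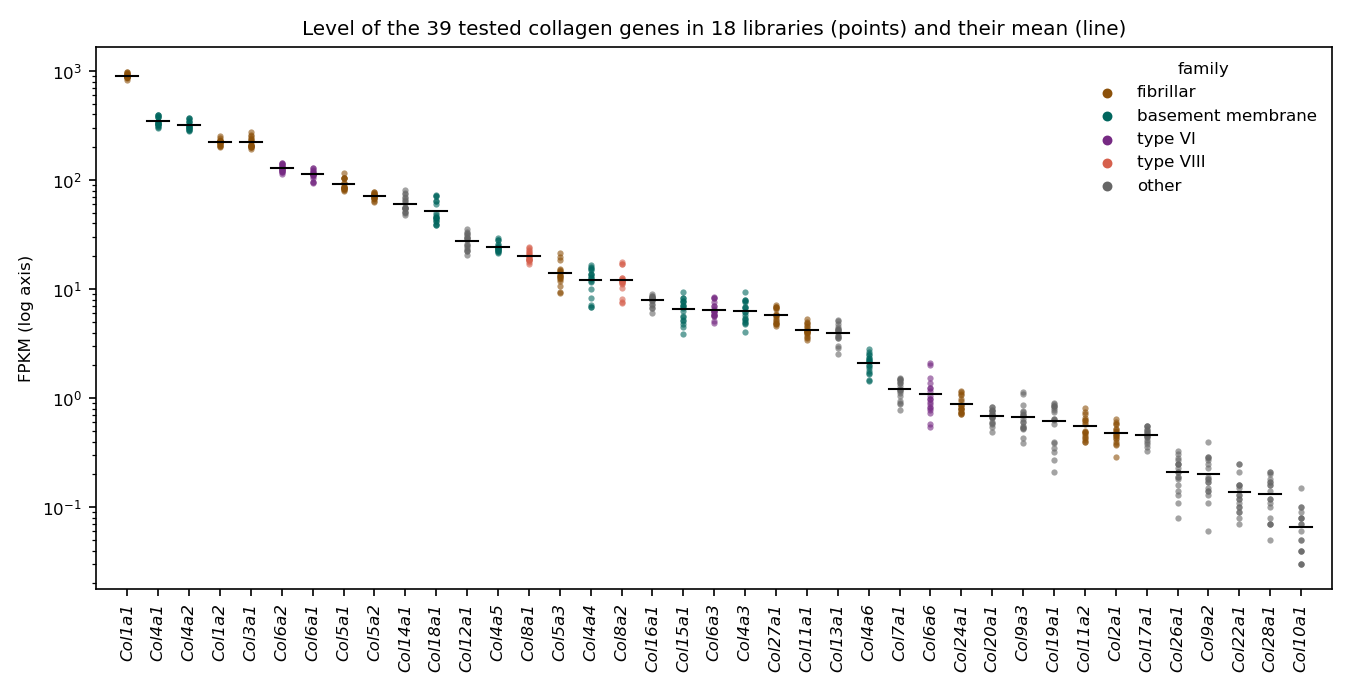
FPKM of the 39 tested collagen genes on a log axis, ordered by mean level. Each point is 1 of 18 libraries, the line is their mean and the colour is the family. Col1a1 stands above all others in each library, and the lowest genes lie under 1 FPKM.

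The type VI genes Col6a2 (129 FPKM) and Col6a1 (113 FPKM) were followed by Col5a1 (91.7 FPKM) and Col5a2 (71.3 FPKM), whose chains nucleate type I fibres. Col14a1 (60.8 FPKM), which coats fibrils, Col18a1 (51.8 FPKM), the parent of endostatin, and Col12a1 (27.8 FPKM) completed the 12 most abundant, which held 95.1% of the sum. Ranges of neighbours in this order overlapped for Col4a1 and Col4a2, Col6a2 and Col6a1, and Col6a1 and Col5a1, but the first named was the higher in 18 of 18 libraries in each of these pairs. Col5a2 exceeded Col14a1 in 14 libraries and Col14a1 exceeded Col18a1 in 11. Below them, Col4a5 averaged 24.3 FPKM, Col8a1 20.2 and Col8a2 12.04, and Col5a3 ran from 9.13 to 21.3 FPKM. Another 11 genes averaged at least 1 FPKM: Col4a4, Col16a1, Col15a1, Col6a3, Col4a3, Col27a1, Col11a1, Col13a1, Col4a6, Col7a1 and Col6a6 ranged from 12.2 down to 1.10 FPKM. The place of Col4a4 rests on a short effective length of 1136 bases, against 5590 for Col4a3. In counts over all libraries Col4a4 was the lower of these 2, at 4291 against 10850. The cartilage collagen Col2a1 averaged 0.476 FPKM and the hypertrophic cartilage collagen Col10a1 0.0661 FPKM.

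The first comparison set ad-sORF6 against its control virus, and collagen genes that changed were higher. Of the 39 tested, 5 rose and 0 fell by the edgeR quasi-likelihood test at a Benjamini-Hochberg adjusted p under 0.05. Over all genes tested 3.86% were called, 0.975% as higher and 2.88% as lower. No collagen gene was lower at an unadjusted edgeR p under 0.05 (0 genes), and DESeq2 and limma also called 0 as lower. The 5 came from 4 families: 2 of 11 fibrillar genes, 1 of 8 basement membrane genes, 1 of 4 tested type VI genes, 1 of 2 type VIII genes and 0 of 14 other genes, of which 2 were higher at an unadjusted p under 0.05 and DESeq2 called 1. The median log2 fold change was 0.12 over the 39 genes and 0.00 over all genes, and 30 of the 39 lay above 0. The all-gene median is not matched for transcript length. Across all genes fold change rose with length (Spearman's rho 0.23), and collagen transcripts were longer (median effective length 5867 against 2455 bases). With a correction for length the collagen median was 0.091, and 7 genes were called higher.

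Col8a2, one of the pair of type VIII chains, stood at 76.7, 74.8 and 74.2 normalised CPM (CPM, counts relative to library size, scaled by TMM) with sORF6 and at 51.4, 48.6 and 52.9 in the controls. The groups did not overlap, and Col8a2 was 1.48-fold higher (log2 fold change 0.56 ± 0.05 SE, edgeR adjusted p = 1.52e-06). Its partner chain Col8a1 ran from 61.0 to 66.7 normalised CPM against 52.8 to 63.0, with overlapping groups (0.16 ± 0.08, adjusted p = 0.345). Col5a3, the least abundant chain of type V collagen, read 132, 116 and 122 normalised CPM with sORF6 and 95.4, 86.6 and 91.7 in the controls. Each sORF6 library was above each control, for a log2 fold change of 0.43 ± 0.06 (edgeR adjusted p = 1.73e-04). These calls for Col8a2 and Col5a3 held with any 1 of the 6 libraries left out and in each of the 10 other settings tried.

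Col4a5, a type IV chain encoded on the X chromosome, had 198, 189 and 189.6 normalised CPM with sORF6 and 170, 159 and 174 without, a log2 fold change of 0.20 ± 0.04 (edgeR adjusted p = 0.0026). This call held with any 1 of the 6 libraries left out and was lost in the fit of only these libraries (adjusted p = 0.0667). The other type IV genes were not called: Col4a1 had a log2 fold change of 0.05 ± 0.04 and Col4a2 of 0.03 ± 0.04, and without sORF6 control replicate 2 these were -0.0034 and -0.030. Col3a1 had 1345, 1246 and 1263 normalised CPM against 1142, 1100 and 1164, and Col6a6, a long chain that can replace Col6a3 in type VI, had 18.5, 17.95 and 13.6 against 12.2, 10.35 and 10.9. Neither gene's groups overlapped, with log2 fold changes of 0.18 ± 0.04 (edgeR adjusted p = 0.0247) and 0.58 ± 0.15 (0.0293). Both calls were lost in 4 of 6 fits with 1 library left out, with adjusted p up to 0.166 for Col3a1 and 0.159 for Col6a6, in each case without sORF6 replicate 1. The position of Col6a6 in the table overlaps Pik3r4, and the use of strand in counting was not given in the sources used.

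Among the abundant chains that were not called, Col1a1 ranged over 5674 to 5939 normalised CPM against 4930 to 5609, and the groups did not overlap (0.14 ± 0.04, edgeR adjusted p = 0.0875). Col14a1 (0.21 ± 0.06, adjusted p = 0.0522) and Col6a3 (0.35 ± 0.10, 0.0615) lay nearest to the threshold. In all, 13 of the 39 genes were higher in each sORF6 library than in each control and 1 was lower, where 9.98% and 10.6% of all genes were so. Control replicate 2 was the lowest of its group in 31 of the 39 genes, and without it 3 genes were called and the median was 0.07. The count was also 3 without sORF6 replicate 1, where the median was again 0.07, and 3 in the fit of only these 6 libraries, while DESeq2 called 9.

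**Figure D2:**
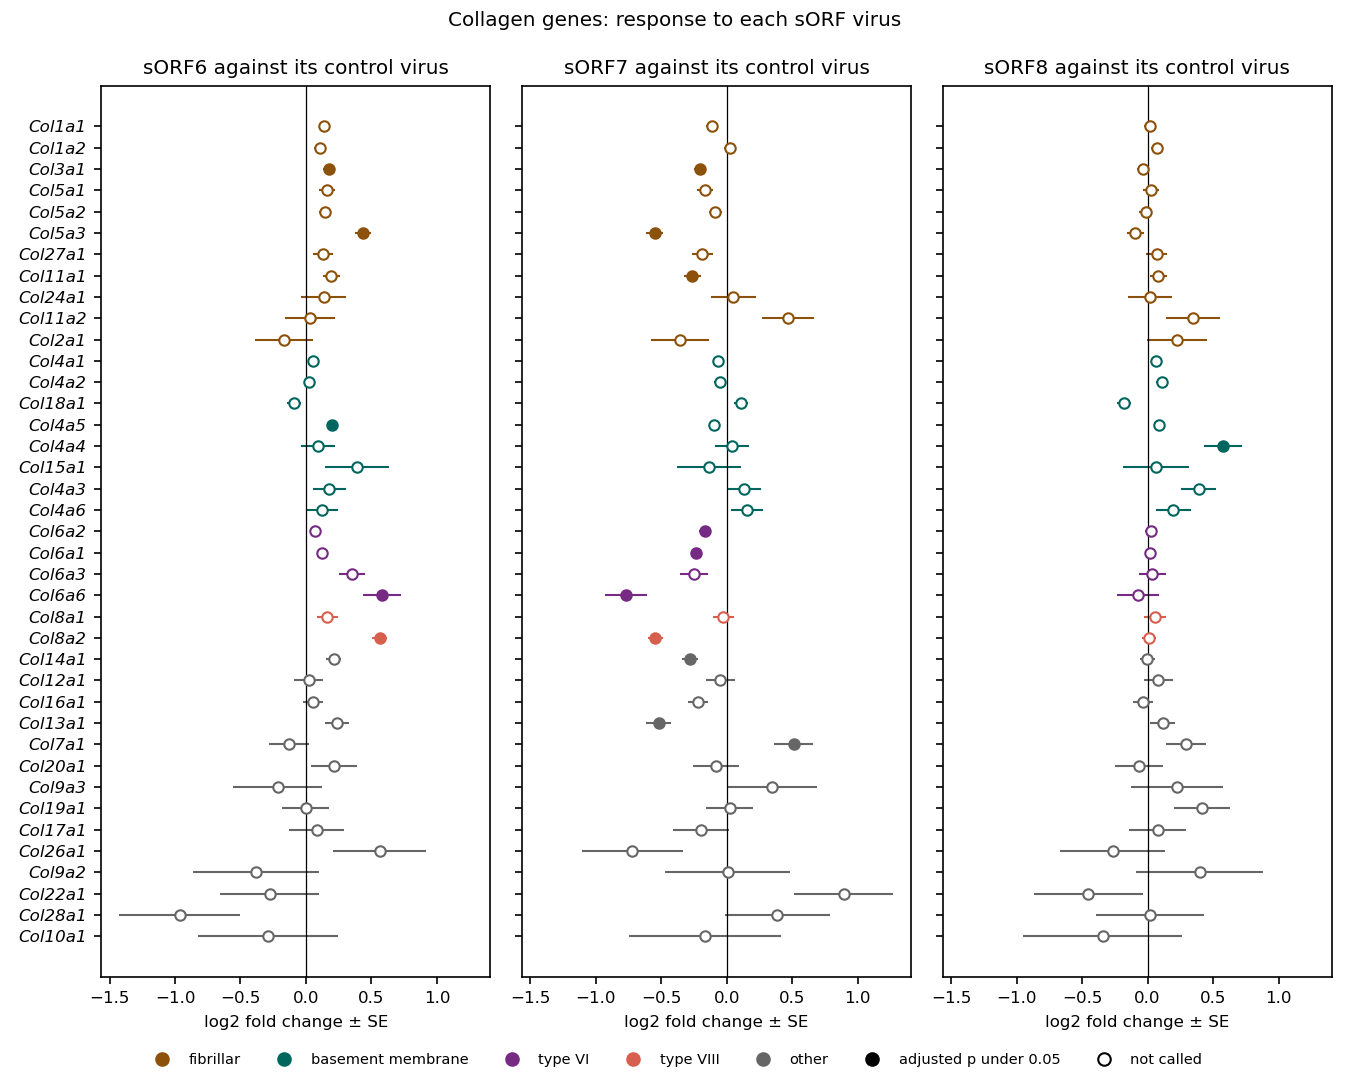
Log2 fold change ± SE of the 39 tested collagen genes against the matching control virus, grouped by family, for sORF6 (left), sORF7 (middle) and sORF8 (right). Filled points passed an edgeR adjusted p under 0.05: 5 for sORF6, all above 0, 10 for sORF7, of which 9 lie below 0, and 1 for sORF8.

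The second comparison set ad-sORF7 against its control virus, and here collagen genes were mainly lower. Of 39 tested, 9 fell and 1 rose by the edgeR test, where 3.66% of all genes fell, 4.12% rose and 7.77% were called in all. The falls were 3 of 11 fibrillar genes, 3 of 4 tested type VI genes, 1 of 2 type VIII genes and 2 of 14 other genes, while 0 of 8 basement membrane genes were called. Of these 8, only Col4a5 (-0.10 ± 0.04, adjusted p = 0.134) had an unadjusted edgeR p under 0.05, and DESeq2 and limma called 0. The median over the 39 genes was -0.10, against 0.00 over all genes, and 26 lay below 0. Here fold change fell with transcript length across all genes (Spearman's rho -0.13). With the correction for length the collagen median was -0.065, and 10 genes were called lower.

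All 4 tested type VI genes were lower in each sORF7 library than in each control, and 3 passed the test. Col6a1 stood at 387, 391 and 379 normalised CPM with sORF7 and at 455, 474 and 431 in the controls, with no overlap and a log2 fold change of -0.23 ± 0.04 (edgeR adjusted p = 5.56e-04). Col6a2, which pairs with it in the type VI trimer, had 431, 438 and 408 against 462, 509 and 463 (-0.17 ± 0.04, adjusted p = 0.0241). Col6a6 had 4.68, 6.82 and 5.06 against 10.8, 9.21 and 8.17, the largest fall of a called collagen gene in this comparison (-0.77 ± 0.16, adjusted p = 0.005). Col6a3, the long chain of the classical trimer, had 53.9, 55.9 and 47.4 against 68.7, 62.3 and 55.9, also without overlap, but was not called (-0.25 ± 0.10, adjusted p = 0.173). Summed over the family, type VI transcripts were at 219 ± 6.02 FPKM with sORF7 and 248 ± 10.6 in its controls (SD, n = 3 each). The call of Col6a2 was lost in 3 of 6 fits with 1 library left out, with adjusted p up to 0.131 without sORF7 control replicate 2.

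Col8a2 was again among the clearest differences, now lower. It read 31.6, 34.9 and 32.1 normalised CPM with sORF7 and 49.5, 50.5 and 43.9 in the controls, 1.46-fold lower (log2 fold change -0.55 ± 0.06, edgeR adjusted p = 1.44e-05). Col8a1 had a log2 fold change of -0.03 ± 0.08 and overlapping groups. Col5a3 read 57.2, 65.0 and 55.2 against 88.8, 90.8 and 80.5, also lower in each sORF7 library (-0.55 ± 0.06, adjusted p = 3.35e-05). The other fibrillar falls were smaller: Col3a1 had 978, 987 and 916 normalised CPM against 1114, 1186 and 1026 (-0.21 ± 0.04, adjusted p = 0.0058). Col11a1, a chain of the fibril core that associates with type V, had 25.2, 27.1 and 26.96 against 33.6, 31.0 and 30.4 (-0.26 ± 0.06, adjusted p = 0.0164). The call of Col11a1 was lost in 2 of 6 fits with 1 library left out, with adjusted p up to 0.097 without sORF7 control replicate 1.

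Col1a1 ran from 5006 to 5218 normalised CPM with sORF7 and from 5277 to 5911 without, a log2 fold change of -0.11 ± 0.04 that was not called (edgeR adjusted p = 0.131). Its partner Col1a2 overlapped between the groups (0.02 ± 0.05). Outside the fibrils, Col13a1, a transmembrane collagen of cell adhesions, had 9.42, 10.6 and 10.8 normalised CPM against 14.8, 14.7 and 14.7 (-0.52 ± 0.10, adjusted p = 0.002). Col14a1 had 304, 354 and 327 against 422, 407 and 369 (-0.28 ± 0.06, adjusted p = 0.0054). The calls of Col8a2, Col5a3, Col6a1, Col6a6, Col3a1, Col13a1 and Col14a1 held with any 1 of the 6 libraries left out.

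The single rise was Col7a1, the anchoring fibril collagen, at 13.9, 14.4 and 12.7 normalised CPM against 8.93, 8.57 and 11.3 (0.51 ± 0.15, edgeR adjusted p = 0.0428). Its call was lost in 5 of 6 fits with 1 library left out, up to 0.157 without sORF7 control replicate 2. The table gives this gene an interval of 1229537 bases on chromosome 8 that overlaps 55 other genes, so its counts are uncertain. In all, 14 collagen genes were lower in each sORF7 library than in each control and 2 were higher, where 11.3% and 11.8% of all genes were so.

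**Figure D3:**
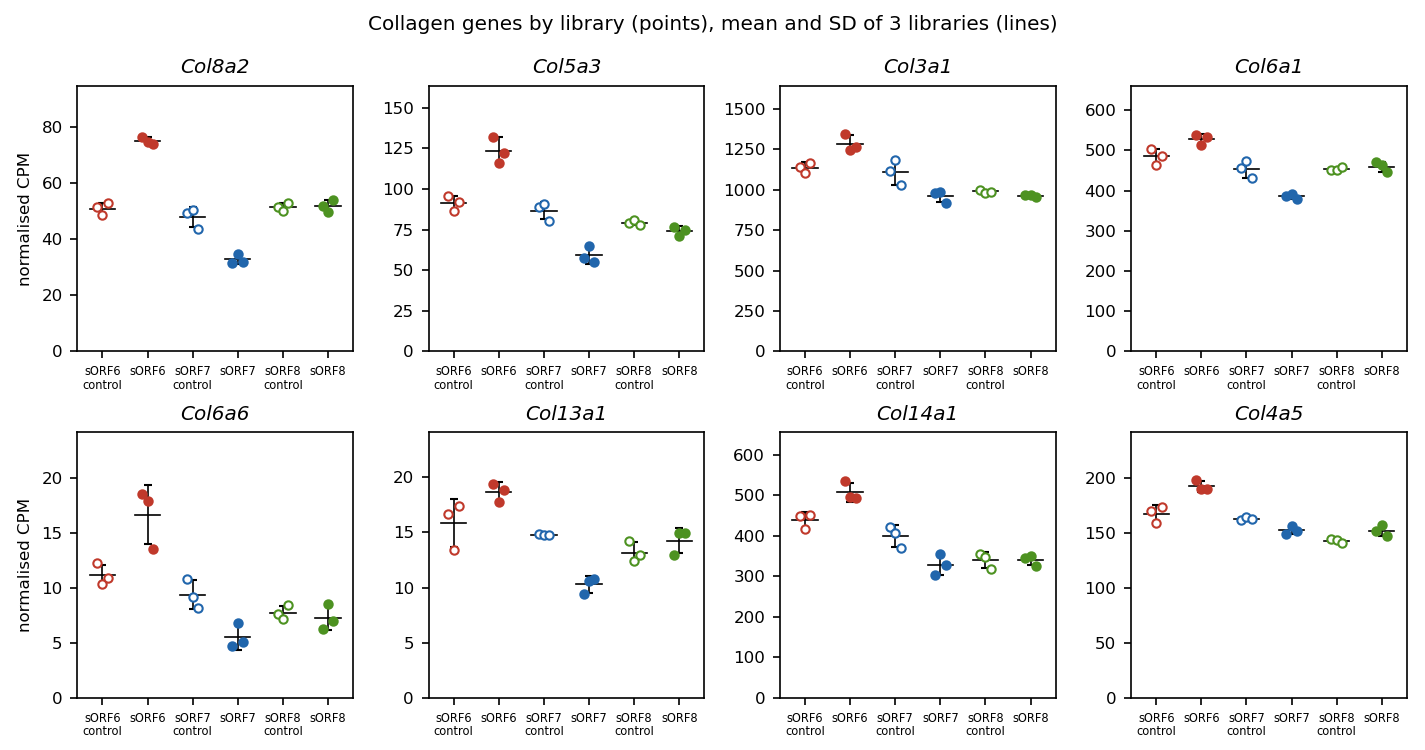
Normalised CPM of 8 collagen genes in each library, with open points for control virus, filled points for sORF virus and lines for the mean and SD of 3 libraries; the axes start at 0. Col8a2 and Col5a3 lie above their controls with sORF6, below them with sORF7 and among them or close by with sORF8.

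The third comparison set ad-sORF8 against its control virus, and 1 of the 39 collagen genes was called. Over all genes 3.76% were called, 2.03% as higher and 1.73% as lower. The 0 genes called lower by edgeR compare with 1 at an unadjusted p under 0.05 and 1 called by DESeq2. The 1 was Col4a4, a chain of the type IV network best known from the kidney glomerulus, at 9.38, 14.1 and 11.4 normalised CPM against 7.97, 7.69 and 7.71 (0.58 ± 0.15, edgeR adjusted p = 0.0312). The call was lost in 5 of 6 fits with 1 library left out, up to 0.191 without sORF8 replicate 2. Col4a4 overlaps Col4a3 in the table, and Col4a3 had 29.2, 38.1 and 32.2 against 27.5, 26.7 and 21.9 without a call (0.39 ± 0.13, adjusted p = 0.131).

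Apart from Col4a4, no basement membrane gene passed the test, although 5 of the 8 were higher in each sORF8 library than in each control. Over the 39 collagen genes 7 were so (11.6% of all genes), and 3 were lower without overlap (12.8% of all genes). Col4a1 had 2627, 2583 and 2633 normalised CPM against 2492, 2509 and 2495 (0.07 ± 0.04, edgeR adjusted p = 0.422), and Col4a2 had 2404, 2408 and 2359 against 2218, 2198 and 2228 (0.11 ± 0.04, 0.186). Col18a1 ran the other way, at 323, 303 and 326 against 359, 363 and 359 (-0.18 ± 0.05, adjusted p = 0.0665). In the fit of only these 6 libraries, Col4a2 and Col18a1 were called as well, and 3 collagen genes were called higher and 1 lower. Col8a2 and Col5a3 had log2 fold changes of 0.01 and -0.10. Col12a1 overlapped its controls in all 3 comparisons, with log2 fold changes of 0.02, -0.05 and 0.08 for sORF6, sORF7 and sORF8, of which the first was -0.14 without sORF6 control replicate 2 and the second 0.07 without sORF7 control replicate 1. The median over the 39 genes was 0.05, with 28 above 0.

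Whether the sORFs differed in their collagen response was tested as the difference between the log2 fold changes, each taken against its own controls. The sORF7 response was lower than the sORF6 response for 14 of 39 collagen genes and higher for 0, where 11.2% of all genes were called, 4.88% as lower and 6.29% as higher. At an unadjusted p under 0.05 edgeR gave 4 collagen genes a higher sORF7 response, and DESeq2 called 1. The 14 were 6 of 11 fibrillar genes, all 4 tested type VI genes, Col8a2, Col4a5, Col13a1 and Col14a1. The differences in log2 fold change were -1.11 ± 0.08 for Col8a2 (edgeR adjusted p = 1.84e-08), -0.99 ± 0.09 for Col5a3 (3.55e-07) and -1.35 ± 0.22 for Col6a6 (2.96e-04). Among the 14, 4 had passed in neither single comparison: Col1a1 (-0.26 ± 0.06, adjusted p = 0.0096), Col5a1 (-0.33 ± 0.08, 0.0147), Col5a2 (-0.23 ± 0.07, 0.0304) and Col6a3 (-0.60 ± 0.14, 0.0096). The calls of Col5a1 and Col5a2 were lost in 1 and 7 of 12 fits with 1 library left out, with adjusted p up to 0.0502 and 0.0876, both without sORF6 replicate 1. Those of Col1a1 and Col6a3 held in all 12. In the 3 limma fits the calls of Col1a1, Col5a1, Col5a2 and Col6a2 were lost, and that of Col6a3 held.

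Of the 39 genes, 24 (61.5%) lay above 0 with sORF6 and below 0 with sORF7, a pattern that 31.5% of all genes showed. The opposite pattern was seen in 7, while 6 were above 0 in both and 2 below 0 in both. The 4 collagen genes called in both comparisons, Col8a2, Col5a3, Col3a1 and Col6a6, all had opposite signs, and so did 321 of the 322 genes of the whole table called in both. Across the 39 genes, which are not independent replicates and share libraries, Pearson's r between the sORF6 and sORF7 log2 fold changes was -0.67, against -0.08 across all genes. The 2 correlations are not matched for level or range. Over all genes the log2 fold changes ran from -9.73 to 10.3 with sORF6 and from -10.4 to 10.7 with sORF7. Over the collagen genes they ran from -0.96 to 0.58 with sORF6 and from -0.77 to 0.89 with sORF7. These 2 comparisons share no control library. Across all genes, fold change correlated with transcript length in opposite directions in the 2 comparisons (Spearman's rho 0.23 and -0.13). With the correction for length, the sORF7 and sORF6 responses differed for 16 collagen genes, against 14 in the main fit. The part of length in the shares and correlations above was not tested.

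**Figure D4:**
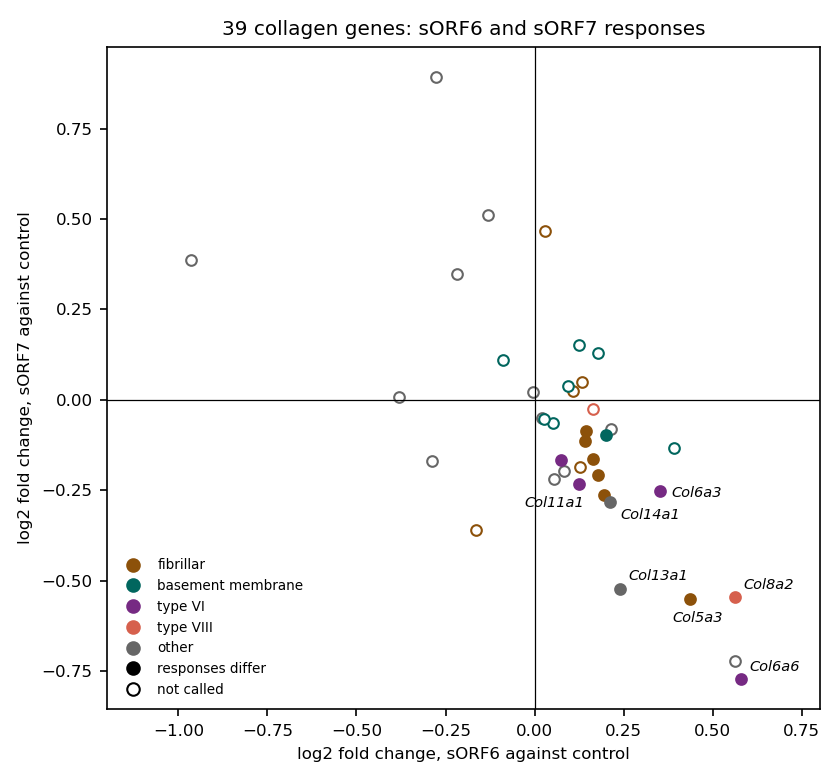
Log2 fold change with sORF7 (vertical) against that with sORF6 (horizontal) for the 39 tested collagen genes, coloured by family. Filled points are the 14 genes whose responses differed by the edgeR test; all of them lie to the lower right, above 0 with sORF6 and below 0 with sORF7.

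The sORF8 response differed from the sORF6 response for 2 of 39 genes, Col8a2 (-0.55 ± 0.08, edgeR adjusted p = 2.13e-04) and Col5a3 (-0.53 ± 0.09, 0.0011), where 3.68% of all genes were called, 0.867% as lower and 2.82% as higher. It differed from the sORF7 response for 8 genes, 7 of them higher with sORF8, where 7.72% of all genes were called, 3.92% as higher and 3.8% as lower. The 7 were Col8a2 (0.56 ± 0.08, edgeR adjusted p = 2.48e-04), Col5a3 (0.46 ± 0.09, 0.0039), Col6a1 (0.25 ± 0.05, 0.0054), Col13a1 (0.64 ± 0.14, 0.0065), Col11a1 (0.34 ± 0.09, 0.0265), Col4a5 (0.19 ± 0.05, 0.0379) and Col14a1 (0.28 ± 0.08, 0.0482). Col18a1 was lower with sORF8 (-0.29 ± 0.08, 0.0229). Of these, the calls of Col11a1, Col4a5, Col14a1 and Col18a1 were lost in 5, 10, 9 and 3 of 12 fits with 1 library left out. The largest adjusted p were 0.0773 for Col11a1 and 0.133 for Col14a1, both without sORF7 control replicate 1, 0.108 for Col4a5 without sORF8 replicate 2 and 0.0712 for Col18a1 without sORF7 replicate 1.

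Because chains of 1 collagen type are assembled together, ratios of their FPKM were followed by library, as a description without a test. Col8a1 to Col8a2 stood at 1.36 ± 0.07 with sORF6 and 1.77 ± 0.08 in its controls, and at 2.44 ± 0.18 with sORF7 and 1.69 ± 0.13 in its controls (SD, n = 3 each). The groups did not overlap in either experiment, and with sORF8 the ratio was 1.65 ± 0.14 against 1.59 ± 0.14. Col5a3 to Col5a1 stood at 0.183 ± 0.0056 against 0.153 ± 0.012 for sORF6 and 0.118 ± 0.0041 against 0.155 ± 0.00089 for sORF7. Col8a2 is the denominator of the first ratio and Col5a3 the numerator of the second. Both genes were thus higher relative to the other chain with sORF6 and lower with sORF7. Among the abundant chains, Col1a1 to Col1a2 was 4.08 over 18 libraries (3.74 to 4.50). It was 3.83 to 3.92 with sORF7 against 4.17 to 4.38 in its controls, with no overlap, and overlapped its controls with sORF6 and sORF8. Col5a1 to Col5a2 ran from 1.13 to 1.54 over the 18 libraries and overlapped its controls in each experiment. Col4a1 to Col4a2 ran from 1.05 to 1.12. Within this narrow range it did not overlap its controls with sORF6, at 1.078 to 1.084 against 1.054 to 1.069. Nor did it with sORF8, at 1.054 to 1.097 against 1.101 to 1.122, while the groups overlapped with sORF7. The type I trimer holds more of the first chain than of the second, and the type IV trimer likewise. Col6a2 to Col6a3 was 20.3 (16.7 to 25.8). It was 16.7 to 17.6 with sORF6 against 18.7 to 25.8 in its controls, and overlapped its controls with sORF7 and sORF8. Col6a1 to Col6a2 was 0.884 to 0.905 with sORF6 against 0.849 to 0.878. With sORF7 that ratio was 0.798 to 0.831 against 0.832 to 0.880, and with sORF8 the groups overlapped.

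The 3 control groups were compared with each other because each carries the control virus of another experiment. By a joint edgeR test 19 of 39 collagen genes differed between them, where 38.4% of all genes did, and 7 of the 8 basement membrane genes were among the 19. Col18a1 was the clearest, at 359, 363 and 359 normalised CPM in the sORF8 controls against 237, 199 and 228 in the sORF6 controls and 213, 225 and 230 in the sORF7 controls (edgeR adjusted p = 2.76e-09). Col4a1 (4.52e-04) and Col4a2 (0.0156) were likewise highest in the sORF8 controls, and Col4a5 (1.44e-04) and Col4a4 (1.20e-05) were lowest there. The basement membrane genes summed to 838 ± 2.03 FPKM in the sORF8 controls, 732 ± 53.7 in the sORF6 controls and 722 ± 9.65 in the sORF7 controls (SD, n = 3 each). Levels of these genes across experiments therefore hold a difference between controls as well, and each response above was taken against its own controls. The joint test also called 11 of 11 cardiomyocyte markers. Their sum was 20483 to 20652 FPKM in the sORF8 controls. It was 29462 to 33785 FPKM in the sORF6 controls and 29870 to 32524 in the sORF7 controls. The control groups thus differed in more than collagen genes, and the part of cell content in their collagen differences was not tested. Without sORF8 control replicate 2 the joint test called 11 collagen genes.

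Collagen chains are modified and folded by prolyl and lysyl hydroxylases and chaperones, trimmed outside the cell and cross-linked by lysyl oxidases. Of 34 such genes listed, 32 were tested: 2 rose and 2 fell with sORF6, 2 rose and 4 fell with sORF7, and 0 were called with sORF8, against 3.86%, 7.77% and 3.76% of all genes called in either direction. With sORF8 the lowest and highest log2 fold changes of the list were -0.26 and 0.09. At an unadjusted p under 0.05 edgeR gave 1 rise and 3 falls there, and DESeq2 called 0. P4ha2, a catalytic subunit of prolyl 4-hydroxylase, was called in both comparisons with signs opposite to those of Col8a2 and Col5a3. It fell with sORF6 (log2 fold change -0.29 ± 0.04, edgeR adjusted p = 1.88e-04) and rose with sORF7 (0.22 ± 0.04, 0.0016), and both calls held with any 1 library of the comparison left out. Adamts2, which removes the amino-terminal propeptide of fibrillar collagens, rose with sORF6 (0.18 ± 0.05, edgeR adjusted p = 0.0387) and fell with sORF7 (-0.21 ± 0.05, 0.0108).

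With sORF6 the other calls of this list were the lysyl hydroxylase Plod2 (0.14 ± 0.04, edgeR adjusted p = 0.0486), which rose, and P4hb, the partner subunit of P4ha2 (-0.10 ± 0.03, 0.0439), which fell. With sORF7, the prolyl 3-hydroxylase P3h2 rose (0.23 ± 0.05, edgeR adjusted p = 0.0135), and the lysyl oxidase Loxl1 (-0.16 ± 0.04, 0.0229) and the galactosyltransferase Colgalt2 (-0.38 ± 0.10, 0.0272) fell. Each of these 5 calls and both of Adamts2 were lost in some fits with 1 library left out. The largest adjusted p were 0.217 for Adamts2 and 0.195 for P4hb without sORF6 replicate 1 and 0.205 for Plod2 without sORF6 replicate 3. For sORF7 they were 0.0757 for P3h2 without sORF7 replicate 2, 0.123 for Loxl1 without sORF7 replicate 3, and 0.06 for Adamts2 and 0.12 for Colgalt2 without sORF7 replicate 1.

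Of 10 collagen receptor genes, 8 were tested. Ddr2, a receptor tyrosine kinase that binds fibrillar collagen, rose with sORF6 (0.22 ± 0.05, edgeR adjusted p = 0.019), a call lost in 3 of 6 fits with 1 library left out, up to 0.107 without sORF6 replicate 1. With sORF7 and sORF8 edgeR and DESeq2 called 0 of the 8, and 2 and 1 had an unadjusted edgeR p under 0.05. Of 11 tested genes for proteins that bind collagen fibrils, 2 rose and 1 fell with sORF6, 0 rose and 4 fell with sORF7, and 1 rose with sORF8, against the same 3.86%, 7.77% and 3.76% of all genes. With sORF7, 0 of the 11 were higher at an unadjusted edgeR p under 0.05 and DESeq2 called 0 as higher. Fmod, a small proteoglycan of collagen fibrils, was among the 4 that fell with sORF7 (-0.34 ± 0.06, edgeR adjusted p = 0.0019), and its call held with any 1 of the 6 libraries left out.

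The other calls named from this list were lost in some of the 6 fits with 1 library left out. With sORF6 the matricellular protein gene Sparc (0.12 ± 0.03, edgeR adjusted p = 0.0121) and the proteoglycan gene Bgn (0.14 ± 0.04, 0.0402) rose, and Dcn, which encodes the proteoglycan decorin, fell (-0.19 ± 0.05, 0.022). These calls were lost in 2, 5 and 4 fits, with adjusted p up to 0.0679 for Sparc and 0.22 for Bgn without sORF6 replicate 1 and 0.105 for Dcn without sORF6 replicate 3. Thbs2 (-0.29 ± 0.07, edgeR adjusted p = 0.0117) and Postn (-0.16 ± 0.04, 0.0128), both genes of matricellular proteins, fell with sORF7, and their calls were lost in 2 and 3 fits, up to 0.0769 and 0.0784 without sORF7 control replicate 1. Sparc also rose with sORF8 (0.10 ± 0.03, edgeR adjusted p = 0.0367), a call lost in 5 fits, up to 0.169 without sORF8 replicate 3.

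Markers of other cell types moved with the collagen differences in part. Fibroblast markers summed to 671 to 683 FPKM with sORF6 against 613 to 641 in the controls, and to 561 to 583 with sORF7 against 606 to 648. The intermediate filament gene Vim, which many cell types express, held most of this sum, at a mean of 430 FPKM. Without Vim, a sum added after the data were seen, the other 13 markers gave 185 to 192 FPKM with sORF6 against 174 to 175, and 149.7 to 162 with sORF7 against 172 to 180.4. By the edgeR test 2 of the 14 rose and 0 fell with sORF6, where 0.975% of all genes rose. Their median log2 fold change was 0.01, with 7 above 0 and 7 below, no marker was lower at an unadjusted p under 0.05 (0 genes), and DESeq2 called 0 as lower. With sORF7, 0 rose and 6 fell, where 3.66% of all genes fell, with a median of -0.20. There 0 were higher at an unadjusted edgeR p under 0.05 and DESeq2 called 0 as higher. With sORF8 the sums were 552 to 567 against 569 to 600 FPKM, and without Vim 189 to 193 against 176 to 187. In that comparison edgeR called 0 of the 14, with 2 higher and 1 lower at an unadjusted p under 0.05, and DESeq2 called 1 as lower.

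Leukocyte markers summed to 36.5 to 40.6 FPKM with sORF6 against 44.5 to 51.8 in the controls, without overlap. Of 8 tested, 1 was called lower, where 2.88% of all genes were. With sORF7 the groups overlapped, and 1 of the 8 was called lower, where 3.66% of all genes were. Smooth muscle and pericyte markers were at 2001 to 2103 FPKM with sORF6 against 2134 to 2244, also without overlap. Among 11 there was 1 rise and 1 fall, where 0.975% of all genes rose and 2.88% fell. With sORF8 they were at 1933 to 2062 against 1843 to 1906, with 1 rise, where 2.03% of all genes rose. With sORF7 the groups overlapped, with 1 rise and 1 fall, where 4.12% of all genes rose and 3.66% fell. Acta2, Tagln and Cnn1 held most of each of these sums. Schwann cell markers summed to 7.69 to 8.12 FPKM with sORF6 against 6.14 to 6.37. Of the 5 tested edgeR called 0, with 2 higher at an unadjusted p under 0.05, and DESeq2 called 0. Cardiomyocyte markers were called for 1 rise and 1 fall of 11 with sORF6, 3 falls with sORF7 and 6 rises with sORF8, where 3.86%, 7.77% and 3.76% of all genes were called. Their sums overlapped the controls with sORF6, were lower with sORF7 at 28548 to 28838 FPKM against 29870 to 32524, and were higher with sORF8 at 23735 to 23885 against 20483 to 20652. The part of these markers in the collagen differences was not tested.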

How the data were processed

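Total RNA of 18 libraries was sequenced with BGIseq protocols, per the labels' protocols. The authors deposited 1 table of 19880 genes on build Rnor_6.0 with an estimated count and an FPKM value per gene and library. Per the submitters' processing notes, the tools included HISAT2 2.0.4, RSEM 1.2.12 and DESeq2 1.4.5, without roles. The deposited FPKM values were used for levels and ratios, and the deposited estimated counts, rounded to whole numbers, for tests. RSEM divides reads among similar transcripts, so overlapping genes are uncertain.

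Genes were kept by filterByExpr with the 6 groups, scaled by TMM (factors 0.981 to 1.02) and fitted over all 18 libraries with edgeR 4.0.16 in R 4.3.3, by the quasi-likelihood test with 1 mean per group and 12 residual degrees of freedom. The common biological coefficient of variation was 6.90%. P-values were two-sided and Benjamini-Hochberg adjusted over 14872 genes, and an adjusted p under 0.05 was a call. A response is sORF minus its own control on the log2 scale. Log2 fold changes are given ± their standard error and group means ± SD. Motifs were counted on both strands, overlaps included. The fits were tested on simulated data.

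The members, lists and comparisons were chosen with earlier results of these data known. Named collagen genes were those called in any comparison and the 12 with the highest mean FPKM, together with genes that help describe them. From the processing and receptor lists up to 3 called genes per direction and comparison were named by smallest adjusted p. The same cut was used for proteins that bind collagen fibrils, a list outside this rule, which gave Fmod, Thbs2, Postn, Sparc, Bgn and Dcn. Of these, Fmod was chosen after its values were seen. Alternatives were DESeq2 1.42.0, RLE scaling, no filter, limma 3.58.1 on log2(FPKM + 1) and log2(FPKM + 0.1), a replicate block, a length correction, leaving out libraries and fitting only the libraries compared.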

Additional observations from a re-analysis of the deposited data

Results flagged for a closer look

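Collagen responses that differed between experiments by the edgeR quasi-likelihood test of the difference itself (adjusted p under 0.05 over all genes) are given here as differences in log2 fold change. Between the sORF7 and the sORF6 response, sORF7 was lower for Col8a2 by -1.11, Col5a3 by -0.99, Col6a6 by -1.35, Col13a1 by -0.76, Col6a3 by -0.60, Col14a1 by -0.49, Col11a1 by -0.46, Col3a1 by -0.39, Col6a1 by -0.36, Col5a1 by -0.33, Col4a5 by -0.30, Col1a1 by -0.26, Col6a2 by -0.24 and Col5a2 by -0.23. Between the sORF8 and the sORF6 response the differences were -0.55 for Col8a2 and -0.53 for Col5a3. Between the sORF8 and the sORF7 response they were 0.56 for Col8a2, 0.46 for Col5a3, 0.25 for Col6a1, 0.64 for Col13a1, 0.34 for Col11a1, 0.19 for Col4a5, 0.28 for Col14a1 and -0.29 for Col18a1. Col8a2 and Col5a3 are the genes that appear in all 3 of these comparisons, and their 6 calls held in each of the 12 fits that left out 1 library of the experiments compared.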

How the results depend on the processing

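Of the 57 single-gene results called in the report, 0 changed sign under the alternatives run. The median log2 fold changes also kept their signs, while counts of called genes have no sign to change. Of the 47 single-gene log2 fold changes that were not called, 16 changed sign in at least 1 alternative, and 0 of those 30 values were called by the test of that alternative. With 1 of the 18 libraries left out in turn, the number of collagen genes called higher with sORF6 (5 in the report) was 3 to 7 and the number called lower 0 to 0. For sORF7 the number higher was 0 to 1 and lower 7 to 11, and for sORF8 0 to 1 and 0 to 1. The median log2 fold change ran from 0.07 to 0.17 for sORF6, from -0.12 to -0.08 for sORF7 and from 0.031 to 0.078 for sORF8. Differences between responses were called for 12 to 15 genes (sORF7 and sORF6), 2 to 3 (sORF8 and sORF6) and 4 to 10 (sORF8 and sORF7), and differences among controls for 11 to 21.

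For sORF6, 9 genes were called higher by DESeq2, 3 by limma on log2(FPKM + 0.1), 3 in the fit of only the libraries compared, and 3 higher and 1 lower (Col18a1) without both sORF6 control replicate 2 and sORF7 control replicate 1. For sORF7, the 3 limma fits called 0 higher, and the median was -0.053 with log2(FPKM + 1) and -0.042 without a filter. For sORF8 the 3 limma fits called 0 higher. Without the 2 control libraries above, and again in the fit of only the libraries compared, 3 were higher and 1 lower. DESeq2 and the length correction each called 1 lower. The sORF8 median was 0.022 with log2(FPKM + 1), 0.026 with log2(FPKM + 0.1), 0.013 without a filter and 0.035 with the length correction. The limma fits called 5, 4 and 5 differences between the sORF8 and sORF7 responses and 11, 11 and 11 among controls. The cause of these shifts was not tested.

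The uncalled values with a changed sign ran over these ranges with 1 library left out. For sORF6, Col12a1 ran from -0.14 to 0.11, Col4a1 from -0.0034 to 0.081, Col4a2 from -0.030 to 0.063, Col4a4 from -0.035 to 0.17 and Col7a1 from -0.34 to 0.039. For sORF7, Col12a1 ran from -0.11 to 0.069, Col1a2 from -0.0045 to 0.048 and Col4a4 from -0.048 to 0.12. For sORF8, Col14a1 ran from -0.047 to 0.028, Col1a1 from -0.0052 to 0.039, Col5a2 from -0.036 to 0.021, Col6a2 from -0.013 to 0.048, Col6a6 from -0.20 to 0.020 and Col8a2 from -0.018 to 0.040. Without the 2 control libraries above, Col12a1 was -0.14 (sORF6) and 0.069 (sORF7), and with sORF6 Col4a1 was -0.0039, Col4a2 -0.030 and Col4a4 -0.036. With the length correction Col12a1 was -0.051 and Col4a2 -0.020 for sORF6, and Col5a1 -0.0041 and Col6a3 -0.0020 for sORF8. Col14a1 with sORF8 was 0.00067 without a filter and 0.00041 in the fit of only the libraries compared.

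The main fit did not pair libraries by replicate number, and the check made does not settle whether they are paired. Same-number correlations of deviations from the group mean ran from -0.02 to 0.18. Of 18 libraries, 10 correlated best with their own number. With a replicate block, 9 collagen genes were higher with sORF6, and 10 lower and 1 higher with sORF7. Of the alternatives for single genes, 2595 left call and direction as they were, 30 changed the sign of an uncalled value, 252 ended a call and 35 added one. Low members, under 1 FPKM, have wide errors, so small changes were not detectable there. Across all genes, fold change correlated with transcript length (Spearman's rho 0.23 for sORF6, -0.13 for sORF7 and 0.05 for sORF8), and collagen transcripts were longer than most.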
